A study of Mus musculus with 6 samples.

Results

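Kruppel-like factors (KLFs) are zinc finger transcription factors. The 10 members described here, Klf2, Klf3, Klf4, Klf6, Klf7, Klf9, Klf10, Klf11, Klf12 and Klf13, were taken as every non-control probe whose gene name in the scanner files was one of these symbols. That gave 19 probes of the 43379 non-control spots of the array, and each probe was spotted once. Of the 19 probes, 18 passed the filter on dim signal, and all 10 genes kept at least 1 probe.

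The RNA came from CD4 T cells of C57BL/6J spleens, from males and females of 6 to 32 weeks, with 5 to 10 spleens pooled per sample and CD4 cells taken with magnetic beads, per the labels. All cells, controls included, were activated with PMA, a phorbol ester that stimulates protein kinase C, and ionomycin, a calcium ionophore. They differed in VIP (vasoactive intestinal peptide), a nerve-derived peptide that raises cyclic AMP through receptors on T cells. Each of 6 two-colour arrays set VIP-treated against untreated RNA. VIP was in Cy5 on replicates 1, 3 and 5 and in Cy3 on replicates 2, 4 and 6. The labels call the 6 arrays biological replicates. Neither the sexes in each pool nor the dose and time of VIP are stated in the labels.

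KLFs share 3 zinc fingers at the carboxyl end that bind GC-rich and CACCC-containing DNA, while the rest of the protein differs and recruits partners. Klf2, Klf4, Klf6 and Klf7 are known mainly as factors that can bind acetyltransferases. Klf3 and Klf12 bind the corepressor CtBP, and Klf9, Klf10, Klf11 and Klf13 bind the corepressor Sin3A. In T cells, Klf2 keeps naive cells quiescent and drives the genes for exit from tissue and homing to lymph nodes, Klf4 restrains proliferation, Klf10 is induced by TGF-beta, and Klf13 is a regulator of the chemokine gene Ccl5. Klf2 is known to be shut down when T cells are activated.

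The probes are 60 bases long. The Klf13 probe is shown whole because it falls on the part that defines the family. The capitals mark codons that match the short linker between 2 zinc fingers, and no other member's probe held such a match. By the files' coordinates (mm9, minus strand) it maps to chromosome 7 from 71036629 to 71082857, a span of 46229 bases, so its letters are not contiguous in the genome.
Klf13 A_51_P341169: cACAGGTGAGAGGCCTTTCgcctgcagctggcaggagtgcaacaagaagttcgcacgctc

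The first 30 bases are shown of the probes on which the results turn, those of the members that rose and of Klf10. They identify what was hybridised. On mm9 the Klf4 probe lies on the minus strand of chromosome 4 from 55540833 to 55540892. The Klf7 probes lie on the minus strand of chromosome 1, from 64125344 to 64125403 and from 64080138 to 64080197, with 45146 bases between them. The Klf10 probe lies on the minus strand of chromosome 15 from 38224543 to 38224602. The place of these probes within exons and other gene parts was not analysed here.
Klf4 A_51_P213544: aagcgctacaatcatggtcaagttcccagc
Klf7 A_51_P405280: gagggggaggggctgacacatgccctgaaa
Klf7 A_52_P239424: atgttgaatctacttgtctgagggtaaagg
Klf10 A_51_P347547: tggtcatgttcttagcaccacagtgtctgg

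Facts of the whole series bear on these values. In the VIP channel 56.7% to 98.99% of spots were well above background, and in the untreated channel 61.62% to 99.91%. Replicate 5 stood apart. The share of outlier-flagged spots was 13.45% there and between 0.574% and 4.442% on the other arrays. The Y-linked transcripts Ddx3y and Eif2s3y had log2 ratios of 4.08 and 4.17 on replicate 5 and the X-linked Xist had -3.30, against values between -0.34 and 0.46 for these 3 transcripts on the other arrays. The RNA in its channels thus differed in sex-linked transcripts, and results are given with and without it where they differ. VIP orientation coincided with the position on the slide (VIP in Cy5 at position 2, VIP in Cy3 at position 4), so dye orientation and position cannot be told apart. The number of arrays limits the precision.

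Of the 10 members, Klf4 and Klf7 rose with VIP, and none of the 10 passed the threshold in the other direction. A gene was counted by its brightest tested probe and called at a limma adjusted p (Benjamini-Hochberg over all probes tested) under 0.05. Over all 22890 genes tested by that rule, 367 were called higher, which is 1.6%, and 123 lower, which is 0.537%. Of the 18 member probes tested, 3 were called higher, against 535 of 33262 probes or 1.61%, and 0 lower, against 0.529%. At an unadjusted limma p under 0.05, 2 member genes (Klf4 and Klf7) were higher and 1 (Klf10) lower. The shares of all genes and probes at that p were not counted, here or for the gene lists below. Counts at an unadjusted p therefore cannot be set against the whole array, and nothing is concluded from them. Of the member probes, 5 were higher at that p, which adds 1 probe each of Klf2 and Klf3 to the 3 called, and 2 were lower, the Klf10 probe and the Klf9 probe A_51_P412200. Without replicate 5, Klf4 and Klf7 were called higher and Klf10 lower, where 2.44% and 1.07% of all genes were called. Of the other 8 members, Klf10 had a log2 ratio of -0.24 and Klf9 -0.08, and Klf2, Klf3, Klf6, Klf11, Klf12 and Klf13 lay between -0.02 and 0.05. The median log2 ratio of all 10 members was 0.0054, with 7 above 0, and the median over all genes was -0.00046. In absolute size the median was 0.0344 for the members and 0.0440 for all genes. The split of calls over all genes, 74.9% higher, depended on the scaling and was 93.7% with median centring, 89% with a normexp offset of 0 and 100% with Agilent's own log ratios.

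**Figure D1:**
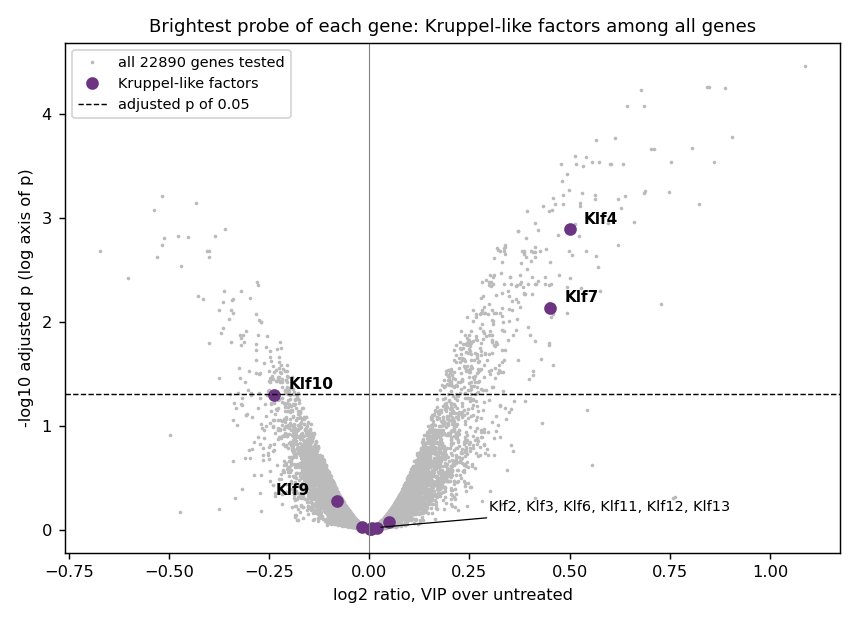
Log2 ratio of VIP over untreated (x axis) against the minus log10 limma adjusted p (y axis) for the brightest probe of each of the 22890 genes tested, with the 10 Kruppel-like factors as large points. Klf4 and Klf7 lie above the dashed line at an adjusted p of 0.05, Klf10 lies on its edge at 0.0504, and the others lie near 0.

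Klf4 had the highest fitted ratio of the family with all 6 arrays, but not without replicate 5, and its distance from the Klf7 probes was within their SEs. On replicates 1 to 6 its log2 ratios of VIP over untreated were 0.10, 0.73, 0.32, 0.85, 0.44 and 0.56. All 6 arrays were thus higher with VIP, and the 3 arrays with VIP in Cy3 were each above the 3 with VIP in Cy5. The fit, which removes the mean dye effect, gave a 1.41-fold higher signal, a log2 ratio of 0.50 with an SE of 0.055 over 6 arrays (limma adjusted p = 0.00127). The mean was 0.29 over the arrays with VIP in Cy5 and 0.71 over those with VIP in Cy3. Within the 3 slides, where the dye effect cancels, the log2 ratios were 0.42, 0.59 and 0.50. Each slide value is a mean over the arrays of that slide, so the range of slides cannot exceed that of single arrays. Without replicate 5 the value was 0.46 (limma adjusted p = 0.000514).

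As channel intensities, the normalized log2 signal of Klf4 with VIP was 13.98, 14.17, 14.01, 13.55, 14.09 and 13.31 on replicates 1 to 6. Without VIP it was 13.88, 13.44, 13.69, 12.70, 13.65 and 12.76. The ranges of the 2 channels overlapped across arrays, whose signals were not scaled to each other, while on each array the VIP channel was the brighter. In bulk RNA, fewer cells of a type and less RNA per cell cannot be told apart, which holds for every member here.

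Klf7, known for its part in neuronal and adipocyte differentiation, rose on both of its probes. The brighter probe, A_51_P405280, had log2 ratios of 0.57, 0.49, 0.40, 0.77, 0.25 and 0.22 on replicates 1 to 6. The other, A_52_P239424, had 0.48, 0.76, 0.16, 0.61, 0.26 and 0.58. All 12 values were above 0. The arrays were not in the same order on the 2 probes: replicate 6 was the lowest on the first and the third highest on the second. The fitted ratios were 0.45 ± 0.069 (1.37-fold, limma adjusted p = 0.00728) and 0.48 ± 0.051 (1.39-fold, limma adjusted p = 0.000954), with SE and n = 6 arrays. Each lies inside the 95% interval of the other, 0.30 to 0.60 and 0.36 to 0.59.

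Within slides, the brighter Klf7 probe had 0.53, 0.59 and 0.23, and the other probe 0.62, 0.39 and 0.42. The slide that holds replicates 5 and 6 was the lowest on the brighter probe but not on the other. Without replicate 5 the fitted ratios were 0.49 and 0.48. The dye effect was small on the brighter probe (-0.04) and larger on the other (-0.17).

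**Figure D2:**
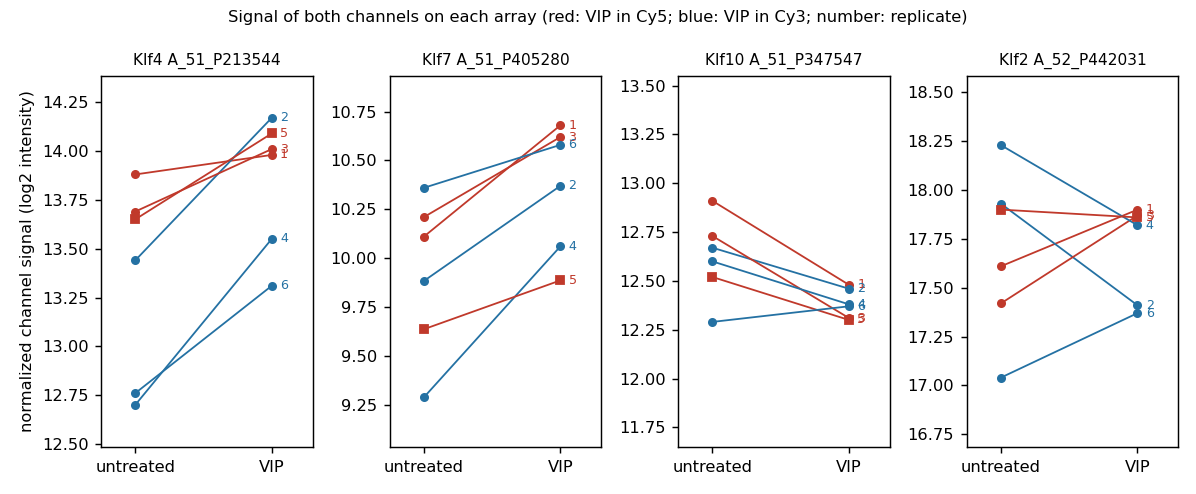
Normalized channel signal (log2 intensity, y axis) of untreated and VIP-treated RNA on each of the 6 arrays for the brightest probe of Klf4, Klf7, Klf10 and Klf2, with 1 line per array and each panel spanning the same number of log2 units. All 6 lines rise for Klf4 and Klf7, 5 of 6 fall for Klf10, and those of Klf2 go both ways.

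The calls of Klf4 and Klf7 depended on the source of the log ratio. With Agilent's own log ratios, and with the authors' deposited series table that holds the same values, Klf4 had 0.51 (limma adjusted p = 0.0834) and the brighter Klf7 probe 0.49 (limma adjusted p = 0.144). The sizes were thus alike and the calls were lost, while 22 genes of the series were called higher on those values.

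Among the other members known as activators, Klf2 and Klf6 did not pass. The brightest Klf2 probe, A_52_P442031, had log2 ratios of 0.29, -0.52, 0.45, -0.40, -0.04 and 0.33 on replicates 1 to 6. Its values were positive on 3 arrays and negative on 3, and the fit gave 0.02 ± 0.10 (SE over 6 arrays, limma adjusted p = 0.968), with a 95% interval from -0.21 to 0.24. The Klf4 ratio of 0.50 lies outside that interval. The 95% interval of Klf4, 0.38 to 0.62, overlaps that of the second Klf2 probe. The second Klf2 probe, A_51_P144264, had a spot left out on replicate 2 and read -0.08, 0.20, -0.07, 0.32 and 0.78 on replicates 1, 3, 4, 5 and 6. Its fitted ratio was 0.25 ± 0.11 (SE over 5 arrays, limma adjusted p = 0.369), with a 95% interval from 0.007 to 0.495 that leaves out 0, and without replicate 4 it was 0.46 (limma adjusted p = 0.0454). The Klf2 probes thus did not give the same order of arrays. The brightest lies on chromosome 8 from 74843761 to 74843820 and the second from 74845137 to 74845196 (mm9, plus strand).

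Klf6, an injury- and growth-responsive factor, had its brightest probe, A_51_P451346, at -0.19, 0.07, -0.06, 0.06 and 0.26 on replicates 1, 2, 3, 4 and 6, with the spot of replicate 5 left out. The fitted ratio was 0.002 ± 0.052 (SE over 5 arrays, limma adjusted p = 0.994). The second Klf6 probe, A_51_P503162, had 0.04 ± 0.070 (n = 6 arrays, limma adjusted p = 0.904), with single arrays between -0.29 and 0.51. Neither probe leaned one way across arrays.

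Of the members that bind CtBP, neither passed. The brightest Klf3 probe, A_51_P492640, had arrays between -0.20 and 0.39, 3 of them above 0, and a fitted log2 ratio of 0.05 ± 0.069 (SE over 6 arrays, limma adjusted p = 0.849). By its coordinates, 65213568 to 65214148 on chromosome 5 (mm9), it spans 581 bases. The second Klf3 probe, A_52_P462392, read 0.11, 0.10, 0.26, 0.16, 0.19 and 0.13 on replicates 1 to 6. It was above 0 on every array with a narrow spread, and its fitted ratio of 0.16 ± 0.040 (n = 6 arrays, limma adjusted p = 0.0858) missed the threshold. Klf12 was near background. Its brightest probe, A_52_P617636, exceeded background clearly on 3 of 6 arrays in each channel and had 0.004 ± 0.044 (limma adjusted p = 0.982), 2 others had 0.01 and -0.03, and A_51_P118877, well above background on 1 array in each channel, was not tested.

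Of the members that bind Sin3A, Klf10 came closest to the threshold. Klf10, also called TGF-beta inducible early gene, had log2 ratios of -0.43, -0.21, -0.43, -0.22, -0.21 and 0.08 on replicates 1 to 6. It was lower with VIP on 5 arrays, and replicate 6 was the exception. The fitted ratio was -0.24 ± 0.053 (SE over 6 arrays, limma adjusted p = 0.0504), which does not pass. Without replicate 5 it was -0.27 (limma adjusted p = 0.0143), and without replicate 6 it was -0.29 (limma adjusted p = 0.0391), which pass. Within slides it was -0.32, -0.32 and -0.07, so the slide of replicates 5 and 6 was apart from the others. Over the alternatives tried the ratio stayed below 0, from -0.29 to -0.19, and it passed in 6 of 25.

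Klf9, a factor induced by glucocorticoid and thyroid hormone, had 1 probe that was negative on 6 of 6 arrays. A_51_P412200 read -0.19, -0.20, -0.07, -0.04, -0.28 and -0.21 on replicates 1 to 6. Its fitted ratio was -0.17 ± 0.045 (SE over 6 arrays, limma adjusted p = 0.114), and that of the brighter probe, A_52_P675996, was -0.08 ± 0.046 (limma adjusted p = 0.525). Neither passed. Klf11 had -0.02 ± 0.056 and -0.07 ± 0.067 on its probes A_52_P474002 and A_51_P205820 (limma adjusted p = 0.94 and 0.729). Klf13 had 0.01 ± 0.042 (limma adjusted p = 0.974), with a 95% interval from -0.09 to 0.10, the narrowest of the brightest member probes.

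**Figure D3:**
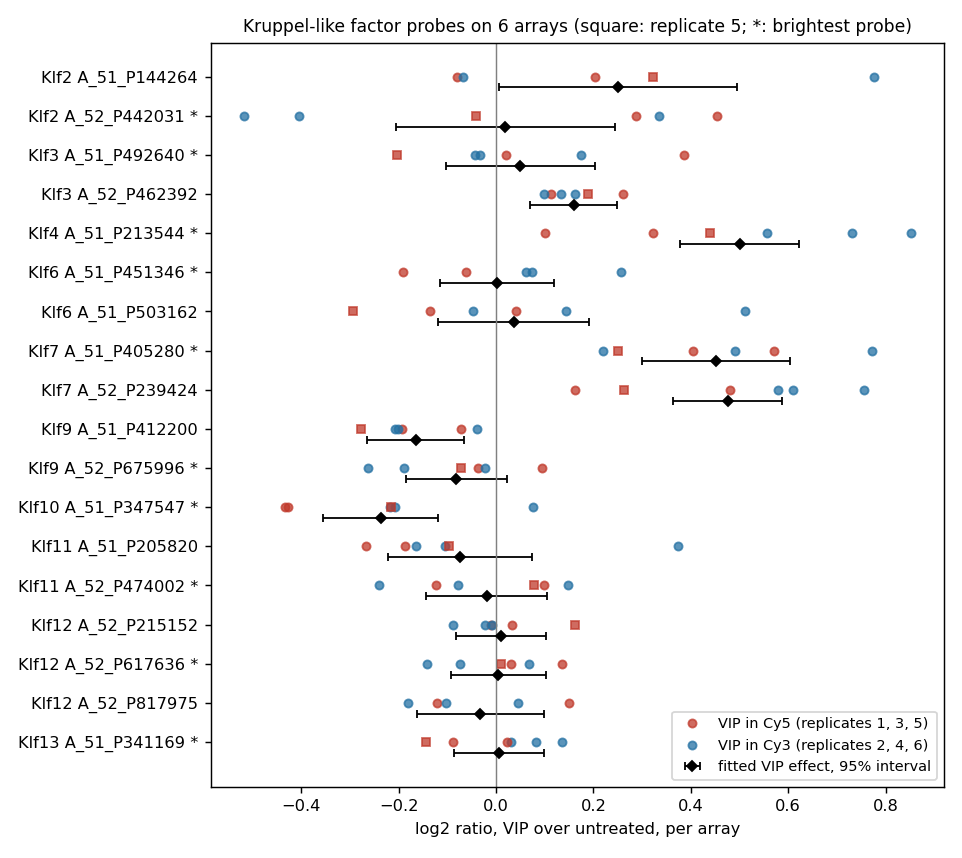
Log2 ratio of VIP over untreated (x axis) for the 18 member probes tested, with 1 point per array, coloured by dye orientation, a square for replicate 5, and a diamond with the 95% interval of the fit. All 6 points of the Klf4 probe and of both Klf7 probes lie above 0, while the brightest Klf2 probe runs from -0.52 to 0.45.

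The promoters of the members are shown for Klf4 and Klf7, the genes that rose, and for Klf2, which did not pass. RefSeq's table (GRCm38.p6) held 9 of the 10 members; Klf10 had no entry. The 250 bases before each gene's start are printed 5′ to 3′ in gene orientation, and capitals mark the 5-base core of the cyclic AMP response element, TGACG or its complement CGTCA. The Klf4 stretch is chr4:55532476-55532725, the Klf7 stretch chr1:64121390-64121639, both on the minus strand, and the Klf2 stretch chr8:72318812-72319061 on the plus strand.
Klf4: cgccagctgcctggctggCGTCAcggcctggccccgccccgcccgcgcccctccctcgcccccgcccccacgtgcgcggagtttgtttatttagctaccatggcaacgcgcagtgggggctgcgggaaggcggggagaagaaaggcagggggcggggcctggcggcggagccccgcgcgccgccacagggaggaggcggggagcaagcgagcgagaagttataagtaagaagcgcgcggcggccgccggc
Klf7: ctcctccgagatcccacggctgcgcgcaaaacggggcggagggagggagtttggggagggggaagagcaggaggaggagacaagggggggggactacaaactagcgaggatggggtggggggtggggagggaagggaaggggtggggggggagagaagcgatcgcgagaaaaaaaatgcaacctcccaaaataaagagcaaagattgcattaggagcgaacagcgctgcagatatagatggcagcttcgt
Klf2: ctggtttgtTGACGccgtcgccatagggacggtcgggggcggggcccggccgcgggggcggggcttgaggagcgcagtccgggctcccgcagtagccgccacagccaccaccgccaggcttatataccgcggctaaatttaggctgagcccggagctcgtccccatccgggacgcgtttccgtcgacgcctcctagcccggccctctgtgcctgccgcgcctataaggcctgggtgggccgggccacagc

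The core occurred once in the Klf4 stretch, at position -232 from the start, once in that of Klf2, at position -241, and nowhere in that of Klf7. On both strands and at any place in the window, it was found in 5 of 9 member promoters (Klf2, Klf4, Klf9, Klf12 and Klf13) and in 17.8% of all 32851 promoters in the table. The full element TGACGTCA, which contains the core, was in none of the 9 and in 1.55% of all. The GC box GGGCGG was in 7 of 9, against 32.7% of all, and the CACCC box, a letter pattern of the kind KLFs bind, was in 6 of 9, against 52%. The Klf4, Klf7 and Klf2 stretches were 74%, 59.2% and 71.2% G and C, and the median over all promoters was 52.4%. These matches describe letters in a window and not binding.

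Outside the 10 members, the other KLF and SP factors held 1 call. Of 15 listed, 13 were tested. Among these, 0 were called higher, 12 did not pass, and 1, Sp1, fell. At an unadjusted limma p under 0.05, 2 were higher and 2 lower. Sp1, a widely expressed factor that binds GC boxes, had log2 ratios of -0.31, -0.06, -0.35, 0.02, -0.37 and -0.16 on replicates 1 to 6. It was lower on 5 of 6 arrays, with a fitted ratio of -0.20 and an SE of 0.041 (limma adjusted p = 0.0338), and it lost the call when replicate 1, 2, 3, 4 or 6 was left out, with limma adjusted p from 0.0660 to 0.120 and ratios from -0.22 to -0.18. Sp5, Sp3 and Klf15 followed with 0.16, -0.13 and 0.12, which did not pass. The median of the list was -0.01.

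Genes of naive T cell homing and survival, several of them known targets of Klf2 and Foxo1, rose in part. Of 13 tested, 4 rose, 0 fell and 9 did not pass, with a median log2 ratio of 0.05. At an unadjusted limma p under 0.05, 6 were higher and 0 lower. Tcf7, which encodes the factor TCF-1 of naive T cells, read 0.34, 0.58, 0.46, 0.64 and 0.74 on replicates 1, 2, 3, 4 and 6, with no value on replicate 5. S1pr1, the receptor for exit from lymphoid organs and a direct Klf2 target, had 0.01, 0.38, 0.15, 0.28, 0.33 and 0.47 on replicates 1 to 6 and a fitted ratio of 0.27 ± 0.050 (n = 6 arrays, limma adjusted p = 0.0224). All of these values were above 0.

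Ccr7, the lymph node homing receptor, read 0.68, 1.00, 0.72, 1.11, 0.06 and 1.37 on replicates 1 to 6, so replicate 5 was far below the others. Il7r, the receptor chain for the survival cytokine IL-7, had 0.22 (limma adjusted p = 0.0863) and did not pass. Without replicate 5, 4 genes of the list were called, Ccr7, S1pr1 and Tcf7 among them. The list held 3 calls without replicate 1 or 4 and 2 without replicate 2, 3 or 6, where S1pr1 lost its call (limma adjusted p from 0.0803 to 0.101), while Ccr7 and Tcf7 kept theirs without any single replicate.

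The other lists around the family held few calls. Of 18 upstream regulators of Klf2 and Klf4 (the PI3K, AKT, FOXO and ERK5-MEF2 genes), 0 passed in either direction (2 higher and 4 lower at an unadjusted limma p under 0.05). Foxo1 was nearest, with 0.21 ± 0.049 and 6 of 6 arrays above 0 (limma adjusted p = 0.0668), followed by Pik3r1 with 0.17, Map2k5 with -0.19 and Map3k2 with -0.17. Without replicate 5, Pik3r1 was called higher.

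None of the 16 partners of KLFs, which are corepressors, coactivators and ubiquitin ligases, passed (1 higher and 3 lower at an unadjusted limma p under 0.05), and 3 of 16 were above 0, with a median of -0.05. Hdac1 had 0.19 (limma adjusted p = 0.0615), Crebbp, a coactivator, -0.19, Smurf1, a ubiquitin ligase, -0.14 and Ep300 -0.13. Of 12 TGF-beta pathway genes around Klf10 and Klf11, 0 passed, and 0 at an unadjusted limma p under 0.05, with a range from -0.09 (Smad2) to 0.12 (Foxp3); Smad7 had 0.09 and Ski 0.10. Of 10 other target genes tested, 0 passed, again 0 unadjusted, with Atf3 at 0.15, Tnfrsf9 at 0.09, Il17a at 0.11 and Ccl5, the target of Klf13, at 0.09. Without replicate 5, 1 gene of this list, the cytokine Il6, was called higher. Il6 read 0.08, 0.29, 0.20, 0.24, -0.67 and 0.43 on replicates 1 to 6, so it was below 0 on replicate 5 only.

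Of 16 growth arrest and cell cycle genes on which KLFs act, 1 rose, 0 fell and 15 did not pass. In this list 3 were higher and 0 lower at an unadjusted limma p under 0.05. Odc1, the first enzyme of polyamine synthesis, had 0.80, 0.13, 0.89, 0.29, 0.80 and 0.16 on replicates 1 to 6. All 6 were above 0, and the arrays with VIP in Cy5 were each higher than those with VIP in Cy3. The fitted ratio was 0.51 ± 0.042 (limma adjusted p = 0.000251). Cdkn1a, which Klf4 is known to activate, had -0.01 ± 0.054 (limma adjusted p = 0.97), and Btg2, Cdkn2d and Ccnd3 had 0.09, 0.16 and 0.10 without passing.

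**Figure D4:**
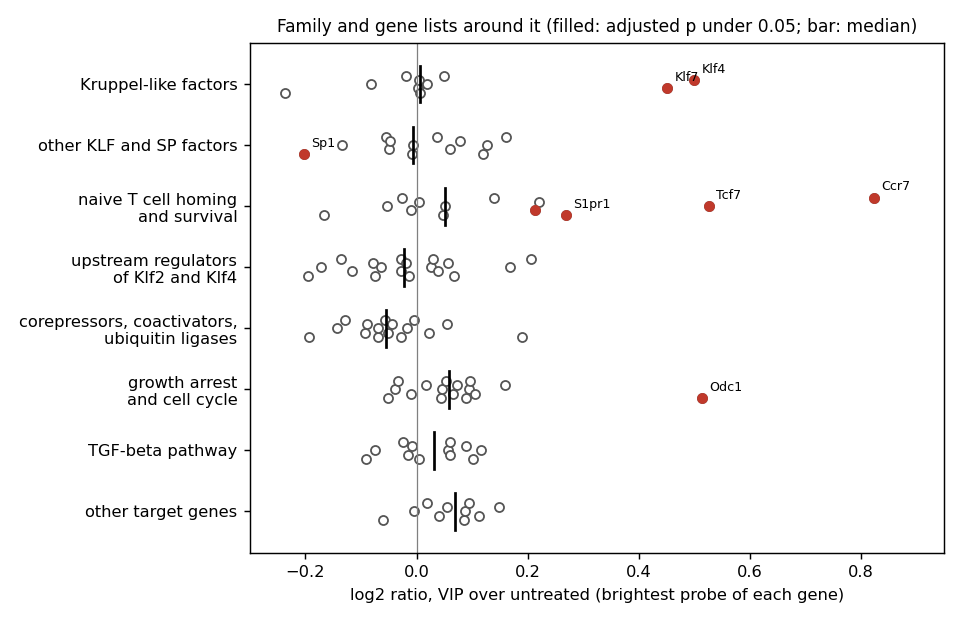
Log2 ratio of VIP over untreated (x axis) for the brightest tested probe of each gene in the family and in 7 gene lists around it (rows), with filled points for a limma adjusted p under 0.05 and a bar at each median. The labelled filled points are Klf4 and Klf7, Sp1, S1pr1, Tcf7 and Ccr7, and Odc1.

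Klf4 and Klf2 are also transcribed in other cells of the spleen, Klf4 in monocytes among them, so markers of those cells were read in the same fit. Among 12 monocyte and macrophage genes tested, 1 rose, Cd14, the endotoxin co-receptor, with 0.63, 0.84, 0.50, 0.52 and 0.37 on replicates 1, 2, 3, 4 and 6 and a fitted ratio of 0.57 (n = 5 arrays, limma adjusted p = 0.00299). The other 11 did not pass, and the list's median was 0.05. Of the 12, 4 were higher and 0 lower at an unadjusted limma p under 0.05. The summed signal of the 10 genes with values on every array was 28920 to 94120 with VIP and 23220 to 98400 without. That sum leaves out Cd14 and Csf1r, and its ranges run over arrays that were not scaled to each other. Without replicate 5, Ccr2, Cd14 and Ly6c2 were called. By the filter, each marker tested was well above background on at least 3 arrays in 1 channel or both. The part of these cells in the ratio of Klf4 was not tested.

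The markers of other cells held no calls. Of 10 B cell genes tested, 0 passed, with a median log2 ratio of 0.03. The summed signal of 9 of them, without Cr2, was 2796 to 5256 with VIP and 2321 to 5968 without. Dendritic cell genes (9 tested), neutrophil genes (7), NK cell genes (8), CD8 genes (2), erythroid genes (4), platelet genes (5) and endothelial genes (7) also had 0 calls in either direction, and their medians lay between -0.07 for erythroid and 0.05 for dendritic cell genes. At an unadjusted limma p under 0.05, 2 NK cell genes were higher and none of the others passed. Of 10 T cell genes tested, Cd28 rose (0.28, limma adjusted p = 0.0124, and lost the call without replicate 1, 2 or 6, with 0.25 to 0.29), 9 did not pass, Cd4 had 0.04, and the median was 0.05. Of 9 genes tested that answer to cyclic AMP through CREB, 7 rose and 0 fell (8 higher and 0 lower at an unadjusted limma p under 0.05). This list was chosen with earlier results of these data known, so it is no independent control of the VIP response. The list's median log2 ratio was 0.35, and 4 were called without replicate 1 or 3. Of the genes called, Fos, Rgs2, Fosb, Nr4a3 and Sik1 were above 0 on 6 of 6 arrays. Nr4a1 and Crem changed sign with dye orientation, so their calls rest on the removal of the dye effect. Nr4a1 was above 0 on 3 of 6 arrays, with a dye effect of 0.86 and a fitted ratio of 0.19. Crem was above 0 on 2 of 4 arrays, with a dye effect of -0.47 and a fitted ratio of 0.31.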

How the data were processed

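Two-colour Agilent arrays measured total RNA. Per the file headers, the authors' scanner files come from Agilent Feature Extraction 9.5.1.1 and hold mean spot intensity, local background and 0 or 1 quality flags per channel. They further contain, per the file headers, log10 of red over green after background subtraction and dye normalization. The deposited series table of the authors has the same log10 values turned to VIP over untreated (largest difference 4.47e-06; column medians 0, or -0.000222 on replicate 3) and was an alternative.

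Intensity was corrected with normexp (offset 50) and normalized by loess within arrays in limma 3.58.1 under R 4.3.3. The 1639 control spots and outlier-flagged spots were left out. Probes well above background on at least 3 arrays in either channel were tested, 33262 in all, and a gene was counted by its brightest tested probe. The model of the log2 ratio had an intercept for the dye and a term for VIP over all probes (lmFit and eBayes, 4 residual and 6.38 prior degrees of freedom), with Benjamini-Hochberg adjustment over all probes. The p-values reflect how much these 6 arrays vary. Signals were not scaled between arrays and no probe's level was compared with another's.

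Of 43379 spots, 26788 were named by RefSeq accession, 6252 by symbol, 1810 by synonym and 8529 as in the file, from a GRCm38 gene table. No member probe was renamed. The members and lists were chosen with earlier results of these data known. All member probes were named; of other lists, every called gene and, where fewer than 4 were called, those of smallest p up to 4; other genes were named for their link to a member. Some results for single genes of the lists are left out of the text. The fit was also run on simulated data with planted changes and independent noise per probe, without faults shared by an array or slide. Its outcome is not given here, and no result rests on it. Alternatives changed the background step, the scaling, the filter on dim or flagged spots, the choice of probe, the dye term, a slide block, weights, prior, pairing of the channels, threshold and replicates.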

Additional observations from a re-analysis of the deposited data

Results flagged for a closer look

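Eif2s3y, a Y-linked transcript, had a dye-adjusted log2 ratio of VIP over untreated of 3.38 on replicate 5, and the next highest array had 0.883. The gap was 0.63 of the whole range of the 6 arrays, above the 95% critical value of Dixon's test. Of 82 probes examined in this way, 1 stood out, and chance alone would mark about 1 in 20 such groups. The dye effect was fitted with replicate 5 included, so part of an excess on that array passes to the others. Before the adjustment Eif2s3y read 4.17 on replicate 5 and 0.28 on replicate 1, the next highest. The count may therefore miss probes for which a single array stood apart.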

How the results depend on the processing

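The members called higher were 2 under all alternatives except a normexp offset of 0 (1, Klf4), Agilent's log ratios (0), the authors' series table (0) and the channels taken as unpaired (0), and they stayed 2 without any single replicate. The members called lower were 0, or 1 (Klf10) with no filter on dim probes, with array weights, with a robust prior and at an adjusted p under 0.1, and 0 to 1 when replicates were left out. Klf4 ranged from 0.46 to 0.58 over its 25 alternatives. Over all genes, 367 were called higher and 123 lower. These were 73 and 9 with a normexp offset of 0, 119 and 8 with median centring, 22 and 0 with Agilent's log ratios and with the series table, 172 and 39 without the dye term, 1 and 0 with the channels unpaired, and 172 and 32 at an adjusted p under 0.01. Those called lower were 230 with array weights and 235 at an adjusted p under 0.1. When single replicates were left out, 165 to 557 were called higher and 34 to 244 lower. The cause was not tested. Brightest probes with ratios near 0 changed sign under some alternatives: Klf6 in 8 of 25, Klf12 in 5 of 24, Klf2 and Klf13 in 4 of 25 each, Klf11 in 2 and Klf3 in 1. Klf12 was limited by signal near background.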
